A study of Saccharomyces cerevisiae with 16 samples.

Results

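The early phase of wild-type (WT) yeast after transfer to medium with 500 µM phosphate was described from 7 of the 16 samples of the series, chosen by their titles. The 3 WT samples taken at 1, 5 and 8 h were treated as one early group and set against the 4 WT samples taken at 0 h. The times thus stood in for replicates, so that the spread from 1 to 8 h counted as error when the shared change was tested. A separate slope tested what drifted from 1 to 8 h. All these samples were Saccharomyces cerevisiae from cultures that had reached logarithmic phase (OD 0.5) in synthetic complete medium and were washed before dilution to OD 0.05 at 0.5 mM phosphate. A second strain, which the labels call PHO84c and describe as carrying abundant high-affinity phosphate transporter, was sampled in the same way. Its 3 samples at 1, 5 and 8 h and its 4 samples at 0 h were used only to test where WT differed. Every sample, those at 0 h included, was labelled with the same phosphate treatment, and no culture at another phosphate level was analysed here. The phosphate level, the wash, the dilution and the hours in fresh medium can therefore not be told apart. The samples at 23 h were left out.

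Yeast senses phosphate through the PHO pathway. When phosphate is plentiful, the cyclin and kinase pair Pho80-Pho85 keeps the transcription factor Pho4 out of the nucleus. When phosphate is scarce, the inhibitor Pho81 blocks the kinase, and Pho4 turns on genes for high-affinity uptake, secreted and vacuolar phosphatases and the polyphosphate store. Cells that are diluted into fresh medium also adjust growth, secretion and wall synthesis, so that lists for these processes were read alongside the PHO genes.

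RNA was measured on Agilent dual-colour arrays, and the deposited values are log2 ratios that lie close to 0 in the samples at 0 h. Each gene name below refers to the probe that carries that name in the platform annotation. Of 6241 features, 1603 had a listed name and the others are given by probe number. The 4 samples at 0 h used both colours of 2 arrays, and each early sample was a Cy3 channel on an array of its own. Time and array can therefore not be told apart within the early group. The fits held a dye term, so each change is the early mean minus the mean of the 2 Cy3 samples at 0 h. The Cy5 samples at 0 h entered only the error. No label says that the samples at 0 h came from separate cultures, so that p-values rest on the spread between samples that may be technical repeats. Across probes the standard deviation (SD) of the log2 ratios was 0.464 at 1 h, 0.398 at 5 h and 0.368 at 8 h, against 0.0867 to 0.142 at 0 h. All 3 early samples were thus more dispersed than all 4 at 0 h, although the values at 0 h are narrowed by being ratios to their own mean. The smallest two-sided p that an exact permutation test of 3 against 4 samples can give is 0.0571429.

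Between the early phase and 0 h, 29 probes rose and 59 fell, which is 88 of 6124 tested (1.44%, or 0.474% higher and 0.963% lower). A call needed a limma adjusted p under 0.05 over all probes tested and a change of at least 1 on the log2 scale, which is 2-fold. The rises ran from 1.00 to 2.62 with a median of 1.21, and the falls from -1.01 to -3.99 with a median of -1.33. Without the limit on size, 440 probes passed the adjusted p, 223 higher and 217 lower. Quantile normalization, which gives every sample the same spread (SD 0.242), left 1 call, the unnamed probe 7957. The early samples did not overlap those at 0 h at 2388 probes (39% of those tested), with 1252 wholly above (20.4%) and 1136 wholly below (18.5%). All 88 called probes were among them, but so were many with small changes. The deposited values of each sample are centred near 0, so that the median change of all probes (0.00359) was fixed by that centring and a shift of all RNAs could not be seen. The named probes made up 24 of the calls, 5 higher and 19 lower (1.52% of the 1575 named probes tested), and the unnamed ones 64 (1.41% of 4549).

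The 5 named probes that rose were listed under genes of unrelated roles. GAS4 encodes a glucanosyltransferase that builds the spore wall. It stood at 1.73, 1.84 and 2.21 at 1, 5 and 8 h, against 0.20, -0.10, 0.19 and -0.19 at 0 h. All early values lay far above those at 0 h. The change was 1.88 ± 0.176 (SE, 3 early against 2 Cy3 samples at 0 h, 7 samples in the fit, limma adjusted p = 0.00252), or 3.67-fold. MRS4 encodes a carrier that brings iron into mitochondria. Its values were 1.69, 1.70 and 1.39 at 1, 5 and 8 h, against -0.02, 0.01, 0.01 and 0.00 at 0 h. The change was 1.59 ± 0.127 (adjusted p = 0.00222). RPD3 encodes a histone deacetylase that represses transcription. It gave 1.57, 1.06 and 1.33 in the early samples, against -0.03 to 0.07 at 0 h, and a change of 1.31 ± 0.157 (adjusted p = 0.00736).

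SIP3, found through its product's interaction with the Snf1 kinase, stood at 1.18, 1.14 and 0.93 at 1, 5 and 8 h. At 0 h it lay between -0.16 and 0.13, so that the groups did not overlap, and the change was 1.13 ± 0.131 (adjusted p = 0.00665). CCT7 encodes a subunit of the ring chaperonin that folds actin and tubulin. Its early values were 0.90, 0.91 and 1.30, against -0.07 to 0.07 at 0 h. The change was 1.05 ± 0.146 (adjusted p = 0.0125). It was 0.92 and under 2-fold without the 8 h sample, so that this call depended on the last time.

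**Figure D1:**
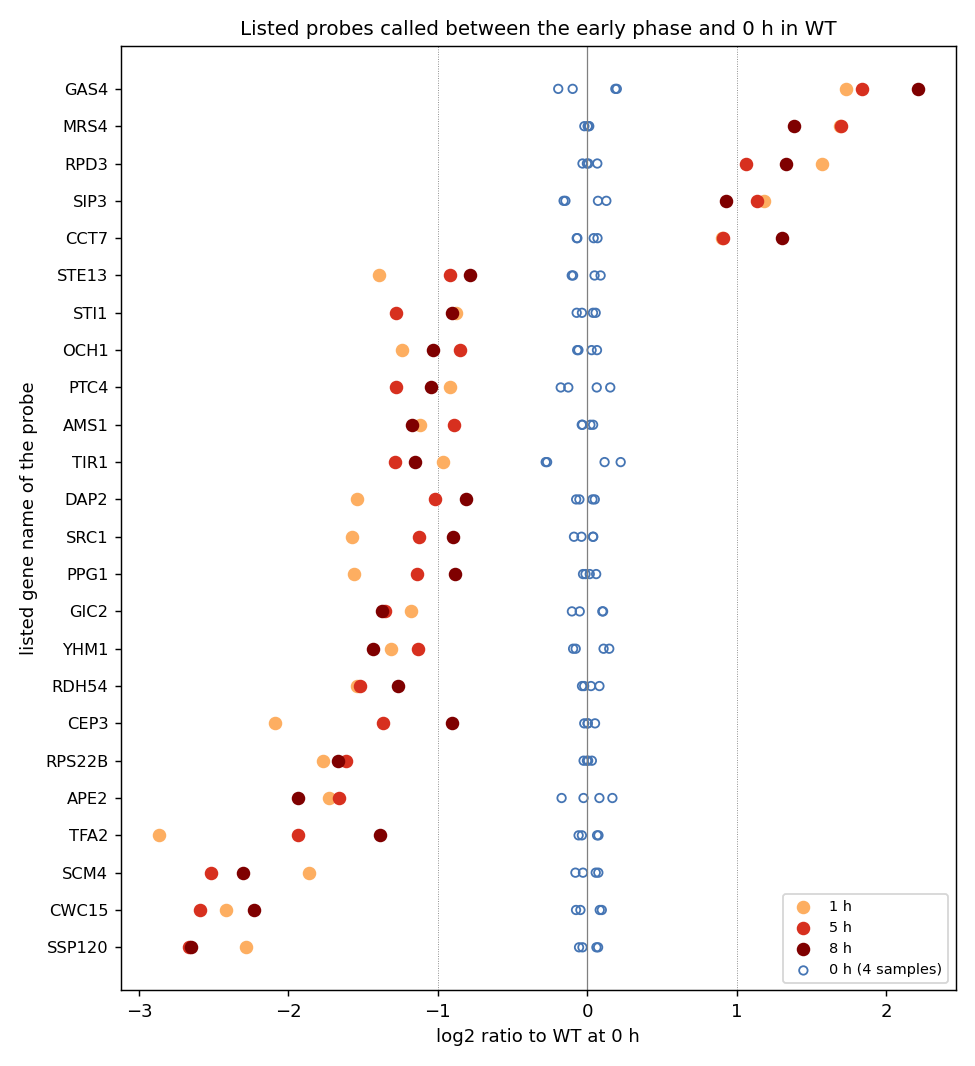
Log2 ratio to WT at 0 h (horizontal axis) of the 24 named probes called between the early phase and 0 h (one line each), with filled points for the 1, 5 and 8 h samples and open points for the 4 samples at 0 h. All early points lie outside the open points, which stay within 0.28 of 0. TFA2 and CEP3 spread widely from 1 to 8 h, while RPS22B and GIC2 do not.

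The deepest named falls held from 1 to 8 h. SSP120, named for a protein of the secretory pathway, stood at -2.29, -2.66 and -2.65 at 1, 5 and 8 h, against 0.07, -0.03, 0.06 and -0.06 at 0 h. It fell by 2.55 ± 0.140, or 5.87-fold, with an adjusted p of 0.000431, the lowest among the named probes. CWC15, a component of the spliceosome, was at -2.41, -2.59 and -2.23, against -0.08 to 0.10 at 0 h, and fell by 2.44 ± 0.132 with the same adjusted p. SCM4, known as a suppressor of a cdc4 cell cycle mutant, was at -1.86, -2.52 and -2.30, against -0.08 to 0.07 at 0 h. It fell by 2.24 ± 0.209 (adjusted p = 0.00252).

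APE2 and RPS22B fell by a similar amount at each time. APE2 encodes an aminopeptidase, and its probe stood at -1.73, -1.66 and -1.94 at 1, 5 and 8 h, against -0.17 to 0.17 at 0 h. It fell by 1.80 ± 0.161 (adjusted p = 0.00252). RPS22B, one of a pair of gene copies for a protein of the small ribosomal subunit, stood at -1.77, -1.62 and -1.67, against -0.02 to 0.03 at 0 h. It fell by 1.69 ± 0.103 (adjusted p = 0.000492), and its early values spanned only 0.149.

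Further called falls came from probes listed under genes for repair, transport, polarity and signalling. RDH54 encodes a DNA translocase of recombinational repair, and its probe stood at -1.54, -1.52 and -1.26 at 1, 5 and 8 h, a change of -1.46 ± 0.137. YHM1, listed in the reference as GGC1, encodes a mitochondrial carrier of GTP and GDP. Its probe was at -1.31, -1.13 and -1.43, a change of -1.33 ± 0.129. GIC2 encodes an effector of the polarity GTPase Cdc42, and its probe was at -1.18, -1.35 and -1.37, a change of -1.33 ± 0.118. PPG1 encodes a protein phosphatase, and its probe was at -1.56, -1.14 and -0.89, a change of -1.21 ± 0.192. The adjusted p of these 4 lay between 0.00252 and 0.017. RDH54 and PPG1 were lowest at 1 h, and YHM1 and GIC2 at 8 h.

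TFA2 and CEP3 fell most at 1 h and were nearer their 0 h level with each later sample. TFA2 encodes the small subunit of the general transcription factor TFIIE. It stood at -2.87, -1.94 and -1.39 at 1, 5 and 8 h, against 0.07, -0.04, 0.07 and -0.06 at 0 h. Its shared change was -2.08 ± 0.362 (adjusted p = 0.019), with an adjusted p of 0.0512 without the first sample at 0 h. CEP3 encodes a subunit of the kinetochore complex that binds centromeric DNA. It stood at -2.09, -1.37 and -0.91, against -0.02 to 0.05 at 0 h, and its shared change was -1.47 ± 0.296 (adjusted p = 0.0295). The adjusted p of CEP3 was 0.0743 or 0.0639 without the first or second sample at 0 h and 0.0539 without the 5 h sample. Both probes were also called for drift.

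The other 8 named falls were near the 2-fold limit. SRC1, for a protein of the inner nuclear membrane, changed by -1.18 ± 0.189, and DAP2 and STE13, for dipeptidyl aminopeptidases of the vacuole and the Golgi, by -1.10 ± 0.202 and -1.01 ± 0.182. These 3 were lowest at 1 h (-1.57, -1.54 and -1.39) and least so at 8 h (-0.90, -0.81 and -0.79). TIR1 for a wall mannoprotein changed by -1.06, AMS1 for the vacuolar alpha-mannosidase by -1.06, and PTC4 for a type 2C protein phosphatase by -1.05. OCH1, for the mannosyltransferase that starts the outer chains of Golgi glycans, changed by -1.03, and STI1, for a cochaperone of Hsp90, by -1.02. Each of the 8 lost its call without at least 1 sample. Values without the 1 h sample were -0.99 for SRC1, -0.93 for OCH1, -0.89 for DAP2 and -0.82 for STE13. Without the 5 h sample they were -0.89 for STI1, -0.98 for TIR1 and -0.95 for PTC4, and AMS1 gave -0.999 without the 8 h sample. DAP2 and STE13 also missed the adjusted p without the first sample at 0 h (0.0547 and 0.0557) or the second (0.0567 and 0.054), and STI1 was at -0.98 without the second. With CCT7, TFA2 and CEP3, this makes 11 of the 24 named calls that were lost without some sample, and the other 13 held whichever single sample was left out. Because of the dye term, leaving out a Cy5 sample at 0 h moved none of these changes and could alter only the adjusted p.

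Larger changes were found at unnamed probes. Probe 7957 rose the most of all calls, with 2.93, 2.50 and 2.44 at 1, 5 and 8 h, against -0.02 to 0.03 at 0 h, and a change of 2.62 ± 0.157 (adjusted p = 0.000492). Probe 8743 stood at 1.84, 1.58 and 2.48, a change of 1.97 ± 0.239. Probe 7771 fell the most, with -4.35, -4.06 and -3.29 at 1, 5 and 8 h, against 0.43, -0.26, 0.02 and -0.01 at 0 h. Its change was -3.99 ± 0.399 (adjusted p = 0.00288), or 15.9-fold lower. Probe 15544 stood at -3.12, -2.19 and -2.99, a change of -2.76 ± 0.257.

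Among the called probes the median size of the change was smaller at 8 h than at 1 h. A shared sign at 1, 5 and 8 h, found at all 88, is nearly fixed by a test that counts the spread over these times as error. At each of the 3 times 50 of the 88 were at least 2-fold from 0. The 3 early values of a called probe spanned a median of 0.57, with 41 probes under 0.5 and 13 at 1 or more. Called falls had medians of -1.57, -1.29 and -1.17 at 1, 5 and 8 h, and 43 of the 59 were higher at 8 h than at 1 h. Called rises had medians of 1.32, 1.12 and 1.20, and 19 of the 29 were lower at 8 h than at 1 h. The size was largest at 1 h in 51 of the 88 probes, at 5 h in 18 and at 8 h in 19. The SD over all probes was also highest at 1 h, as given above, and its part in this order was not tested.

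Drift from 1 to 8 h was fitted as a line through the 3 early samples and is given as the change over 7 h. Each time had 1 sample, so the error came from the 0 h samples and from departures from the line (3 residual degrees of freedom). The 2 samples of a colour at 0 h mirrored each other across probes (r -0.811 for Cy3 and -0.914 for Cy5). The p-values for drift thus do not measure a spread between cultures at one time. It was called at 28 of 6124 probes (0.457%), of which 25 drifted upward (0.408%) and 3 downward (0.049%). An unadjusted p under 0.05 was found at 716 probes. All 28 were in time order, which the test for a slope through 3 samples nearly requires. The 25 probes that drifted upward were all under 0 at 1 h, and 24 of them were at least 2-fold lower than at 0 h then. Their medians were -2.09, -0.99 and -0.26 at 1, 5 and 8 h. By 8 h, 9 were above 0, 12 were within 0.5 of it, and 3 were still at least 2-fold lower. Upward drift among the called probes was thus a return from a low value at 1 h toward the 0 h level, or past it.

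XDJ1 and LAS17 passed their 0 h level. XDJ1, for a J-domain chaperone, stood at -2.31, -0.89 and 0.67 at 1, 5 and 8 h, against -0.09 to 0.08 at 0 h. Its drift was 2.95 ± 0.202 (limma adjusted p = 0.00572), and because the values crossed 0 its shared early change was not called (-0.82 ± 0.704, adjusted p = 0.536). LAS17, for the yeast WASP homolog that activates the actin-nucleating Arp2/3 complex, stood at -1.78, -0.41 and 0.90, against -0.16 to 0.16 at 0 h. Its drift was 2.67 ± 0.200 (adjusted p = 0.00598). ARC19, for a subunit of Arp2/3 itself, stood at -1.54, -0.78 and -0.26, against -0.06 to 0.10 at 0 h, and drifted by 1.28 ± 0.151 (adjusted p = 0.0325). LAS17 and ARC19 were both low at 1 h and higher with each later sample, and ARC19 had not crossed 0 by 8 h. No list of actin genes was fixed, so these 2 probes do not speak for such genes in general.

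TFA2 drifted by 1.48 ± 0.152 (adjusted p = 0.022) and CEP3 by 1.19 ± 0.149 (adjusted p = 0.0337), from the values given above. They were 2 of 6 probes called both for a shared fall and for upward drift, and no probe was called for a shared rise together with downward drift. Probe 5223 drifted the most, with -3.88, -2.12 and -0.74 at 1, 5 and 8 h, a drift of 3.13 ± 0.157 (adjusted p = 0.00258). Probe 9756 stood at -2.43, -1.03 and 0.62, a drift of 3.02 ± 0.213. Downward drift was called at 3 unnamed probes. Probe 14122 stood at 2.02, 0.92 and 0.55 (drift -1.50 ± 0.185), and probe 674 at 1.19, 0.60 and -0.28 (drift -1.45 ± 0.182).

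The drift count rested on single samples. It was 8 without the first sample at 0 h and 7 without the second, although neither moved the fitted drift of a named probe. It was 37 without the 8 h sample, with 6 of the 28 probes among them, and 4 without the 1 h sample, with 0 of the 28 among them. It was 94 without the 5 h sample, which leaves a difference between 8 h and 1 h. XDJ1 lost its call only without 1 h (3.65, adjusted p = 0.0575), and LAS17 without 1 h (3.05, adjusted p = 0.0947) or 8 h (2.41, adjusted p = 0.0668). TFA2, CEP3 and ARC19 lost theirs without 1 h, without 8 h and without the first or second sample at 0 h, with an adjusted p of 0.0702 to 0.339. The fitted drift of these 5 kept its direction each time, at 1.07 or more.

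**Figure D2:**
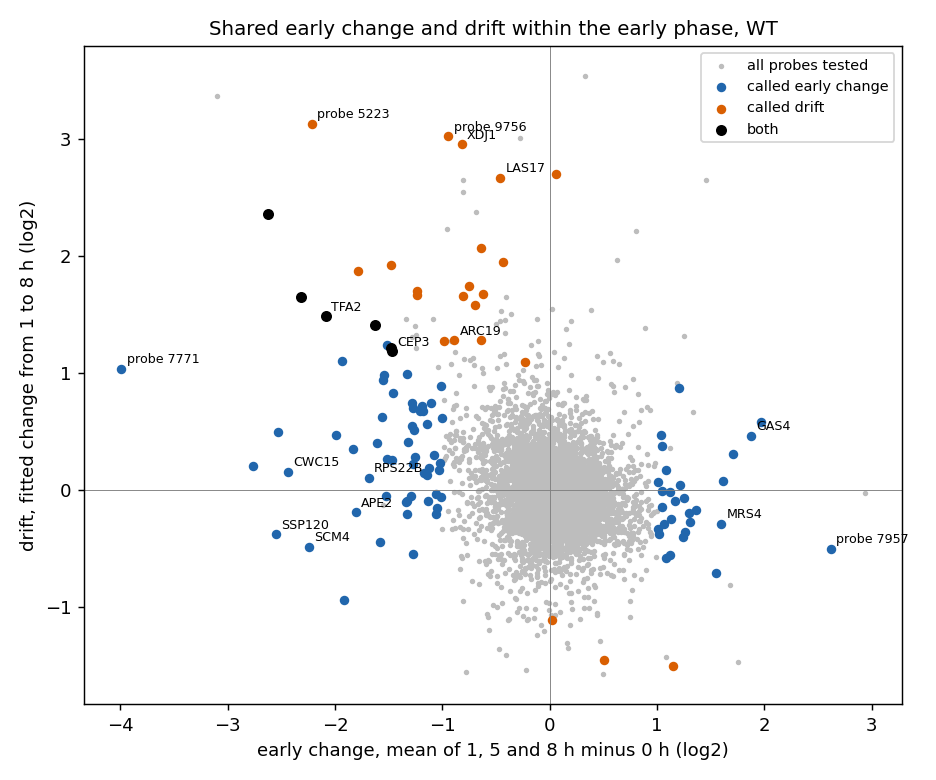
Each point is a probe, with its shared early change in WT (horizontal axis, log2) against its drift from 1 to 8 h (vertical axis, log2 over 7 h). Called early changes lie to the left and right, called drifts mostly in the upper left, and the 6 probes called for both are all in the upper left, a fall that lessened with time.

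**Figure D3:**
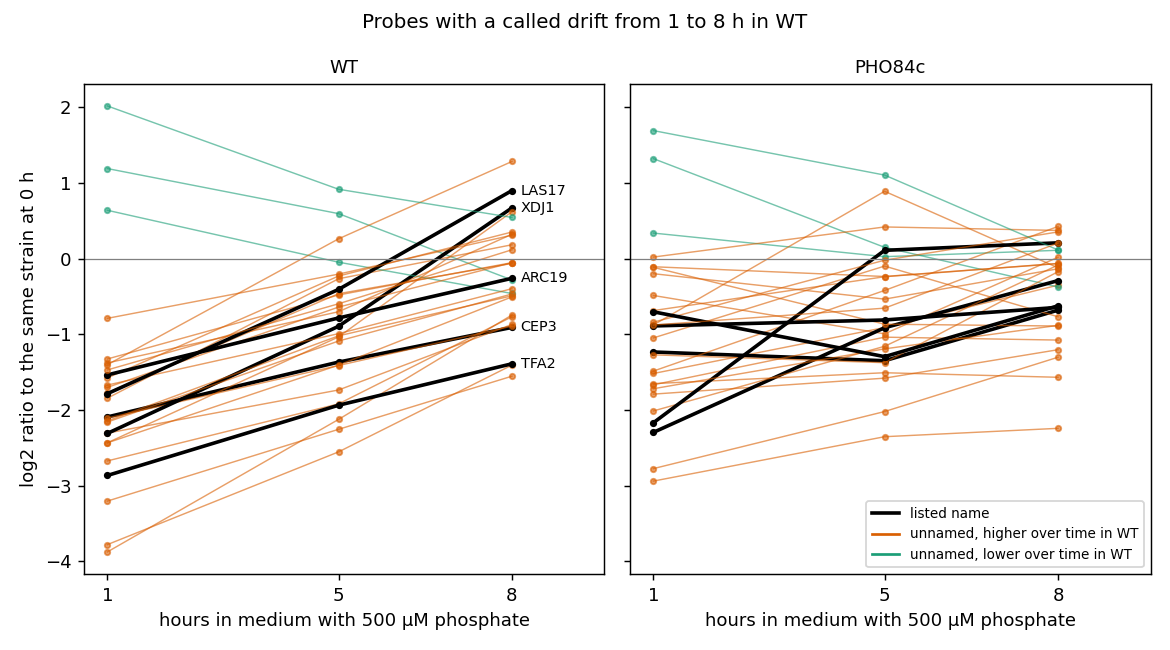
Log2 ratio to the same strain at 0 h (vertical axis) at 1, 5 and 8 h (horizontal axis, hours) of the 28 probes with a called drift in WT, in WT (left) and PHO84c (right). In WT, 24 of the 25 upward courses start at least 2-fold below 0. In PHO84c 24 of the 25 also end higher than they start, though not all in time order, from a median of -1.23 at 1 h to a median of -0.29 at 8 h.

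The gene list used for the PHO regulon showed no call among the 7 of its 21 genes that had a tested probe. The rest had no named probe, so that the response of the regulon as a whole could not be read. None was called for the shared change (1.44% over all probes) or for drift (0.457%), the median change was -0.12, and 3 of 7 were above 0. VTC4, for the polymerase that makes polyphosphate, was at -0.34, -0.30 and -0.33 at 1, 5 and 8 h, against -0.08 to 0.08 at 0 h. It was below its 0 h range at all 3 times, but the change of -0.31 ± 0.149 did not pass (adjusted p = 0.269). PHO8, for the vacuolar alkaline phosphatase, was at 0.18, 0.37 and 0.30, against -0.08 to 0.05 at 0 h, a change of 0.30 ± 0.119 (adjusted p = 0.185). PHO3, for an acid phosphatase, changed by -0.18 ± 0.118, and GIT1, for a permease of glycerophosphoinositol, by 0.14 ± 0.141. HOR2, for a glycerol-3-phosphatase, and PHM7, for a membrane protein of unknown function, changed by -0.12 ± 0.203 and 0.14 ± 0.188.

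PHO81, which encodes the kinase inhibitor of the pathway, had one low sample. It stood at -1.40 at 1 h, -0.12 at 5 h and -0.03 at 8 h, against -0.04 to 0.05 at 0 h. The shared change was -0.50 ± 0.374 (adjusted p = 0.472) and the drift 1.42 ± 0.276 (adjusted p = 0.139). As a plain difference of 8 h from 1 h, instead of a line through 3 times, it was 1.37. With 1 sample at each time, this difference has no measured spread at 1 h or 8 h. HOR2 ran downward, at 0.29, -0.14 and -0.41 at 1, 5 and 8 h, with a drift of -0.71 ± 0.181 that did not pass (adjusted p = 0.223).

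Of the genes that sense phosphate or relay the signal, 8 of 20 had a tested probe. None was called for the shared change (1.44% over all probes) or for drift (0.457%). PHO80, for the cyclin that pairs with Pho85, changed by 0.10, and PHO2, for the homeodomain partner of Pho4, by 0.27. PHO87 and PHO88, for a low-affinity transporter and a membrane protein linked to phosphate uptake, changed by -0.21 and -0.33. SYG1 had the highest change of the list at 0.40. All 8 were well under the 2-fold limit.

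Among the 40 gene lists with at least 3 probes tested, 29 had no called member, 11 had at least 1, and 3 had at least 2. Over all probes 1.44% were called, so that most lists of this size would hold few calls or none. These counts are therefore not a result about the lists. List medians lay between -0.12 and 0.21, beside 0.00359 for all probes. Of the 24 named calls, 15 were in a list and 9 in none. The 33 wall probes had a median of -0.04, with 1 called higher (GAS4) and 3 lower (SCM4, OCH1 and TIR1), beside 0.474% higher and 0.963% lower over all probes. In lists of this size 1 or 2 calls make a large share, and no list was tested as a set. GAS4 acts in the spore wall and SCM4 is not known as a wall protein, whereas OCH1 acts on glycans in the Golgi and TIR1 is a wall mannoprotein. The other 29 wall probes were not called, among them FKS1 for a glucan synthase subunit at -0.08 and CCW12 for a wall glycoprotein at -0.03.

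The 18 chaperone probes had a median of -0.12, the lowest of the lists, with 6 above 0. Of the 18, CCT7 rose and STI1 fell (1.44% of all probes were called), and XDJ1 drifted upward (0.408% of all probes). CCT6 and TCP1, further subunits of the same chaperonin as CCT7, stood at 0.79 and -0.61, neither of them called. HSP82 and HSC82, the gene pair for Hsp90, stood at -0.13 and -0.11. Of 8 mitochondrial carriers 2 were called, again beside 1.44% of all probes, as MRS4 rose and YHM1 fell, and YMC1, LEU5 and CTP1 stood at 0.72, -0.43 and 0.49 without a call. None of the 14 probes of the iron regulon was called (median 0.08), beside 1.44% of all probes. FTR1 for the iron permease was at 0.16 and AFT2 for an iron-responsive activator at -0.75.

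Lists for growth had medians near that of all probes. The calls in the lists below stand beside 1.44% of all probes. The 53 probes for ribosome biogenesis had a median of -0.01 and 0 calls, and the 53 cytosolic ribosomal protein probes -0.02 and 1 call, RPS22B. The 11 translation factors were at -0.08, the 20 mitochondrial ribosomal proteins at 0.07 and the 9 tRNA synthetases at 0.06, each with 0 calls. For energy metabolism, the 19 probes of glycolysis and fermentation had a median of -0.02, the 7 hexose transporters -0.07, the 21 respiratory chain and ATP synthase probes -0.05 and the 12 of the TCA and glyoxylate cycles -0.07, without a call. The 18 probes for stress and storage carbohydrate had a median of -0.01 and 1 call, AMS1. Among 11 probes for RNA polymerase II and its general factors, TFA2 alone was called, while TFA1, the other TFIIE subunit, stood at -0.32, and TAF5 of TFIID stood at -1.08 with a drift of 1.46, neither of which passed. CEP3 was the 1 call among 15 kinetochore and spindle probes, whose median was 0.08.

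**Figure D4:**
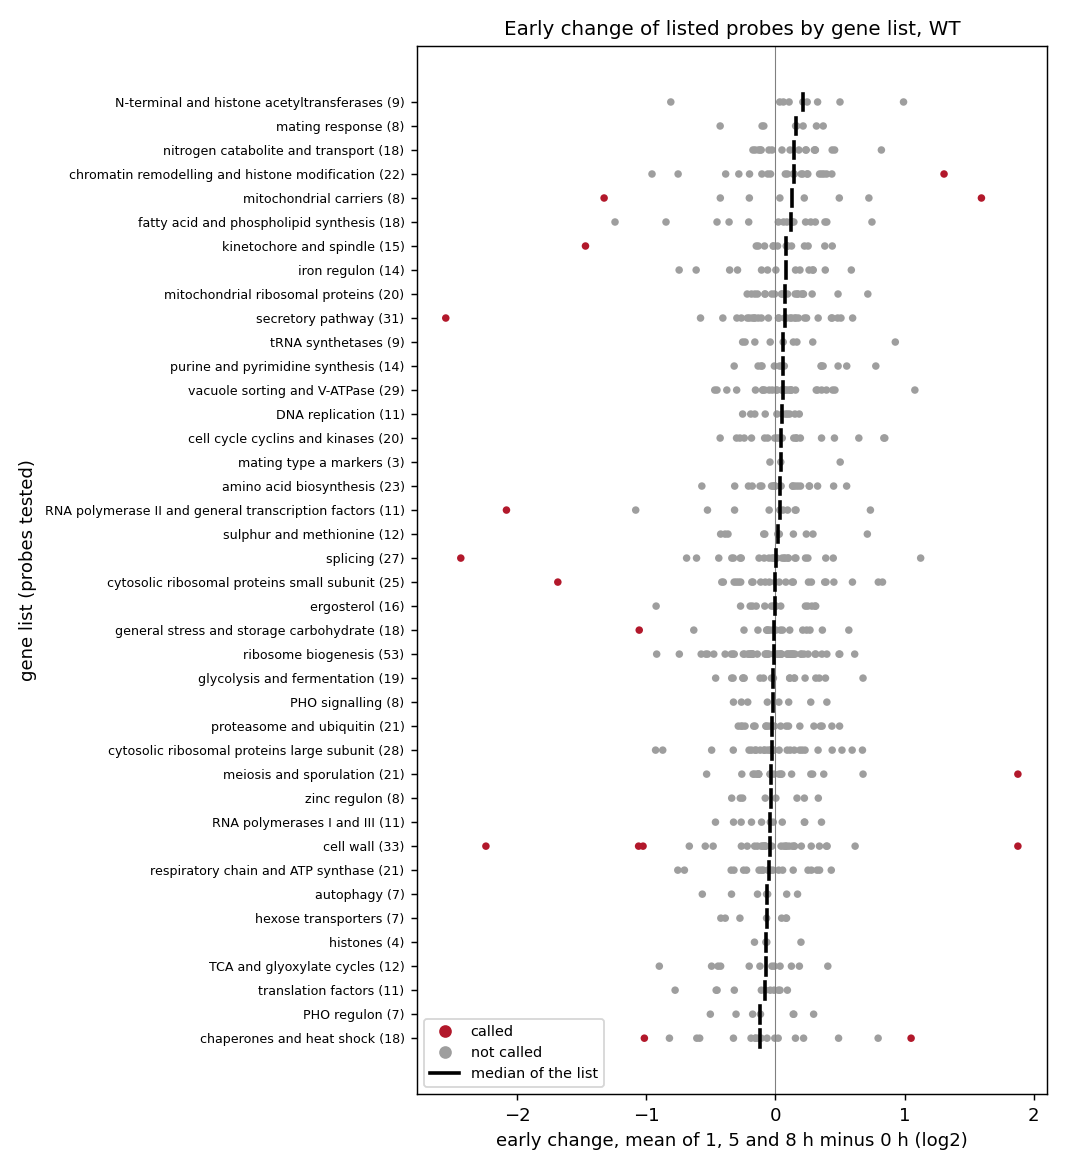
Shared early change in WT (horizontal axis, log2) of each named probe, by gene list (vertical axis, number of probes tested in parentheses), with called probes in red and the median of each list as a black bar. The medians stay between -0.12 and 0.21, and called probes (1.44% over all probes) are isolated points at the edges of 11 lists.

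Among markers of mating type and sporulation, GAS4 was the 1 call, beside 1.44% of all probes. Of the a-type markers, MFA1 and MFA2 for a-factor and STE6 for its exporter changed by -0.04, 0.04 and 0.50, none called. STE3, the receptor that marks alpha cells, changed by -0.30 without a call. The other 20 meiosis and sporulation probes lay between -0.53 (SSP2) and 0.68 (SPR1), with HOP1 and SPO13 at -0.13 and -0.04. No signal level was given with the ratios, so that the presence or absence of these RNAs at 0 h could not be read, and changes cannot be placed on a scale of RNA per cell.

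The link between probe and gene name limits each named result. Near-identical copies of ribosomal protein genes did not change alike. In 11 such pairs the early changes of the copies were apart by a median of 0.636, against 0.275 for all pairs of named probes, and 6 pairs lay on opposite sides of 0. RPS22B changed by -1.69 and its copy RPS22A by 0.28, and RPL11B by -0.87 and RPL11A by 0.33. The closest pair was RPS9A and RPS9B at -0.08 and -0.05. The SD over the 53 cytosolic ribosomal protein probes was 0.431, against 0.357 over all named probes. Whether these copies truly differ or a name belongs to another probe was not tested.

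In PHO84c the same early comparison called 57 of 5956 probes (0.957%), 20 higher (0.336%) and 37 lower (0.621%). No 0 h sample was shared between the strains, although the array block number at each time was the same. Over the 5863 probes tested in both strains, the early changes in WT and PHO84c had a Pearson r of 0.668 and a Spearman rho of 0.616 across probes, which are not independent replicates. Of the 58 falls called in WT among them, 24 were called lower in PHO84c, which is 41.4% of the WT list and 64.9% of the PHO84c list. Of the 28 rises, 6 were shared, 21.4% of the WT list and 30% of the PHO84c list. All 58 falls had the same sign in PHO84c, with a median of -1.33 in WT and -0.88 in PHO84c, and 22 of the 28 rises did, with 1.21 in WT and 0.69 in PHO84c. The probes were chosen for their size in WT, so that these medians are not a test of a strain difference.

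All 19 named falls of WT stood under 0 at all 3 times in PHO84c, and 7 were called there, namely SSP120, CWC15, SCM4, RPS22B, CEP3, YHM1 and STE13. SSP120 changed by -2.55 in WT and -1.67 ± 0.217 in PHO84c, CWC15 by -2.44 and -1.82 ± 0.149, and SCM4 by -2.24 and -1.98 ± 0.380. YHM1 changed by -1.33 in WT and -1.24 ± 0.159 in PHO84c. The fall was larger in WT at 18 of the 19, and larger at each of the 3 times at 12. The difference between strains passed the test at 0 of the 19, also with time as a block shared by the strains. In that fit 10 of the 19 had an unadjusted p under 0.05, beside 558 of the 5863 probes tested. SSP120 came nearest there, with WT minus PHO84c values of -1.04, -0.59 and -0.96 at 1, 5 and 8 h and a difference of -0.89 ± 0.166 (adjusted p = 0.084). These tests do not show that the falls were alike in both strains. Because the 19 probes were chosen for their fall in WT, the counts of 18, 12 and 10 do not show a strain difference either. TFA2 had the widest gap, with -2.08 in WT and -0.88 in PHO84c, a difference of -1.21 ± 0.476 (adjusted p = 0.847, or 0.357 with time as a block). Of the named rises RPD3 was called in both strains (1.31 in WT and 1.18 ± 0.117 in PHO84c), and MRS4 stood at 0.98 ± 0.109 in PHO84c, just under the 2-fold limit.

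A test of the difference itself, the WT change minus the PHO84c change, called 8 of 5863 probes (0.136%), 7 of them higher in WT. An unadjusted p under 0.05 was found at 308 of the 5863. That limit alone passes some probes by chance, so this is not a count of strain differences. GAS4 was high at each time in WT (1.73, 1.84 and 2.21) and not in PHO84c (0.16, -0.44 and -0.20), a difference of 2.04 ± 0.264 (limma adjusted p = 0.00762). SIP3 was above 0 at each time in WT (1.18, 1.14 and 0.93) and below 0 at each in PHO84c (-1.51, -0.78 and -0.54). Its difference was 2.07 ± 0.309 (adjusted p = 0.0244). CCT7 had WT values of 0.90, 0.91 and 1.30 and PHO84c values of -0.04, 0.11 and -0.25, but its difference of 1.12 ± 0.206 did not pass (adjusted p = 0.0667). The GAS4 call held whichever of the 14 samples was left out, while SIP3 lost its call without the WT 1 h sample (2.02, adjusted p = 0.075). Leaving out a Cy5 sample at 0 h could alter only the adjusted p of these differences.

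**Figure D5:**
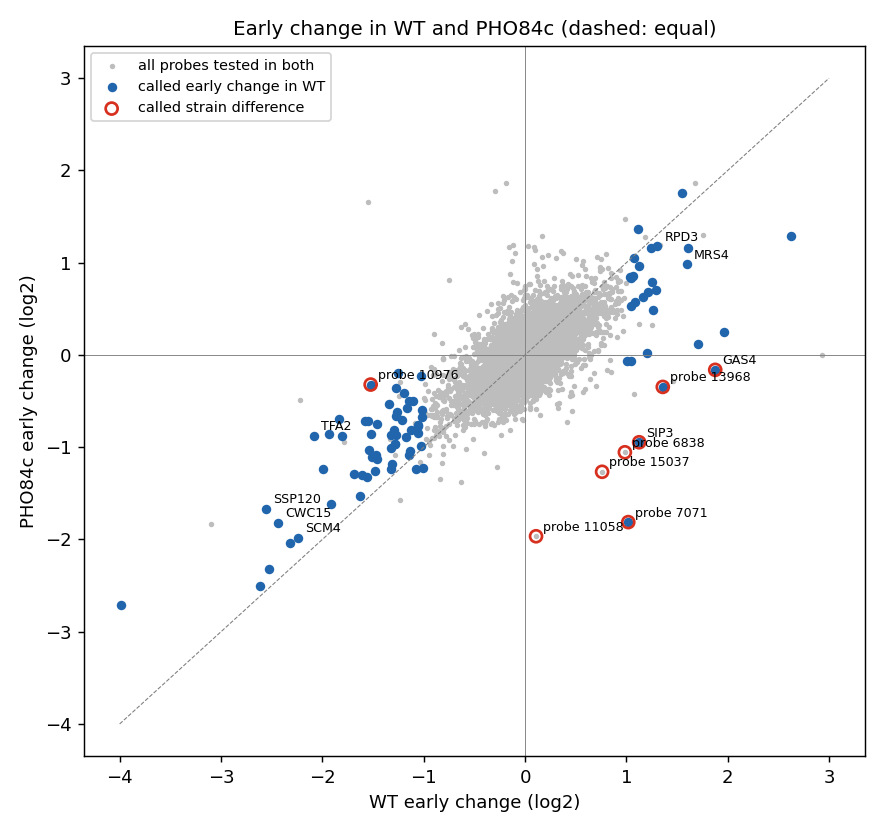
Shared early change in WT (horizontal axis, log2) against that in PHO84c (vertical axis, log2) for the probes tested in both strains, with probes called in WT in blue and the 8 called strain differences ringed. Called falls lie along the lower left in both strains. The 7 ringed probes that are higher in WT, GAS4, SIP3 and probe 13968 among them, lie above 0 in WT and below it in PHO84c.

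The courses of the drifting probes in PHO84c were compared by their values at 1 and 8 h. Of the 25 that drifted upward, 24 were higher at 8 h than at 1 h in PHO84c, beside 52.5% of all probes there and 47.9% in WT. Their medians in PHO84c were -1.23, -0.91 and -0.29 at 1, 5 and 8 h, against -2.09, -0.99 and -0.26 in WT. XDJ1 stood at -2.30, -0.91 and -0.29 in PHO84c, which follows the WT course at 1 and 5 h but had not crossed 0 by 8 h. LAS17 was at -2.17 at 1 h and at 0.11 and 0.21 at 5 and 8 h in PHO84c, so that its return came by 5 h there. TFA2 and CEP3 showed no such order in PHO84c (-0.70, -1.29 and -0.62 for TFA2, -1.23, -1.35 and -0.68 for CEP3). ARC19 rose little there, from -0.89 at 1 h to -0.81 and -0.64 at 5 and 8 h. PHO81 was at -0.23, -0.17 and 0.02 in PHO84c, without the low value seen at 1 h in WT. No test of the difference in drift between strains was made.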

How the data were processed

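Per the labels' protocols, RNA from a MasterPure extraction was amplified and labelled (Agilent Low Input Quick Amp) for dual-colour yeast arrays, and SpotReader analysed the images. The authors deposited 1 table of log2 ratios for all samples. Background correction, normalization, logarithm base and zero point were not given in the sources used here. Base and zero point were inferred from the values, since the linear mean of the 0 h samples of a colour was near 1. The pair of Cy3 samples at 0 h came nearest to 1 (median distance 0.00188) when the second was given double weight, against 0.0107 with equal weights. A treatment tag reads 0.5 M phosphate, and the protocol and titles give 0.5 mM and 500 µM.

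The table held 6255 probes. Those without any value (12) were dropped, a pair listed as FDH2 was averaged, and 1 of 2 probes with identical values was dropped. Probes needed a value in all 3 early samples and in 3 of the 4 samples at 0 h, which left out 117. A name came from the platform annotation for 1608 probes, and all 1607 distinct names were found in the R64 reference table.

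Changes were fitted with limma 3.58.1 in R 4.3.3 (lmFit, eBayes) with group and dye as fixed terms and a random block for arrays (correlation 0.8448 and 4 residual degrees of freedom for the shared change). Benjamini-Hochberg adjustment ran over all probes tested. The strain difference used 14 samples. The number of arrays limits the precision. Named are the listed probes with the largest called changes (up to 12 each way for the shared change and 8 for drift), all listed PHO regulon genes, up to 4 called members per list, further list members and calls chosen after their values were seen, and unnamed probes by number, including all called strain differences. The members, gene lists and comparisons were chosen with earlier results of these data known. The fits were tested on simulated data whose noise had the same spread in all samples, without mirrored samples at 0 h. The real early samples were more dispersed, so the simulation could not check the error rate of these calls. Alternatives were other terms, normalizations and filters, and leaving out each sample.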

Additional observations from a re-analysis of the deposited data

Results flagged for a closer look

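A test of the WT early change minus the PHO84c early change passed at 8 probes, and each is given here with its values. Every difference carries a limma adjusted p over 5863 probes. GAS4 differed by 2.04 ± 0.264 (SE, adjusted p = 0.00762) and SIP3 by 2.07 ± 0.309 (adjusted p = 0.0244), with values by time in the report.

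Unnamed probe 7071 differed by 2.83 ± 0.441 (adjusted p = 0.0288), with 1.33, 0.87 and 0.98 at 1, 5 and 8 h in WT and -2.62, -1.70 and -1.11 in PHO84c. It was called in both strains, in opposite directions. Probe 11058 differed by 2.07 ± 0.253 (adjusted p = 0.00762), with an early change of 0.11 in WT that was not called and of -1.97 in PHO84c. Probe 6838 differed by 2.04 ± 0.265 (adjusted p = 0.00762), its WT change being 0.99 and its PHO84c change -1.05. Probe 15037 differed by 2.03 ± 0.319 (adjusted p = 0.0288), its WT change being 0.76 and its PHO84c change -1.27. Probe 13968 differed by 1.71 ± 0.170, with the lowest adjusted p of the 8 (0.00181), from 1.36 in WT and -0.35 in PHO84c. Probe 10976 was the only one lower in WT, by -1.20 ± 0.200 (adjusted p = 0.0428), its WT change being -1.52 and its PHO84c change -0.32.

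The calls of GAS4 and probes 11058, 6838 and 13968 held whichever of the 14 samples was left out. Of these samples, the Cy5 ones at 0 h could alter only the adjusted p, because of the dye term. The SIP3 call was lost without the WT 1 h sample (2.02, adjusted p = 0.075). That of probe 7071 was lost without the WT 1 h (2.70) or 8 h (2.87) sample, the PHO84c 5 h sample (2.89) or the first (2.84) or second (2.82) PHO84c sample at 0 h. That of probe 15037 was lost without the WT 1 h (1.95) or the PHO84c 5 h (1.97) or 8 h (1.90) sample. Probe 10976 kept its call only when the WT 5 h or the PHO84c 5 h or 8 h sample was left out, and lay between -1.25 and -1.14 without each of the 11 others. All 8 were also called with time as a block shared by the strains, with an adjusted p of 0.00379 to 0.0488. The labels name separate array images for each strain, so that strain and array set cannot be told apart, although block numbers match by time.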

How the results depend on the processing

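Quantile normalization left 1 call for the shared change, 0 for drift and 0 for the strain difference, and by its construction gave every sample an SD of 0.242. VTC4 drift was -0.013 under it. Without the limit on size the shared change had 440 calls. As a difference of 8 h from 1 h with a mean per time, drift had 94 calls (65 higher, 29 lower), fitted with the correlation of the drift fit. With each sample left out in turn, calls ranged from 75 to 112 for the shared change, 4 to 94 for drift and 4 to 14 for the strain difference. The low and high counts for the strain difference came without the WT 1 h and 5 h samples. Robust eBayes, no dye term and no array block gave 41, 40 and 36 drift calls. PHO81 drift was 1.37 without 5 h, a difference that rests on 1 sample at each time. Uncalled changes of other PHO regulon probes turned sign with a sample left out. The shared change ran from -0.040 (without 5 h) to 0.29 for PHM7 and from -0.31 to 0.045 (without 8 h) for HOR2. Drift ran from -0.93 to 0.29 (without 8 h) for GIT1. It ran from -0.95 to 1.15 for PHM7, -0.067 to 0.081 for VTC4, -0.17 to 0.32 for PHO8 and -0.13 to 0.39 for PHO3, each lowest without 1 h. The cause of these changes was not tested. In 11 fits with a sample left out the array correlation could not be estimated and was taken from the full fit. Requiring complete values kept the same 6124 probes. Median centring, robust eBayes, array weights and the other terms kept the shared change between 85 and 113 calls. No paired analysis was possible because the early samples carry no replicate number to match with those at 0 h. For the strain difference, time as a block shared by the strains, an alternative chosen after seeing the data, gave 11 calls (10 higher, 1 lower) that held all 8, adding KCC4, probe 8743 and 1 other unnamed probe. Signal over background could not be judged, since the ratios carry no signal level.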

Other observations

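Some named probes had an early course that neither the shared change nor the drift captured, because 1 time stood apart. They were chosen after their values were seen, and none was called. CAF17, listed in the reference as IBA57 and known for mitochondrial iron-sulfur cluster assembly, had WT values of 0.19, 3.16 and 0.60 at 1, 5 and 8 h and PHO84c values of 0.44, 2.39 and 0.75. Both strains were thus highest at 5 h. HPA3, for an acetyltransferase, had WT values of -2.18, 2.03 and 1.14 and PHO84c values of -1.99, 0.85 and -0.59.

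PAT1, for an mRNA decapping activator, had WT values of -0.54, 1.55 and -0.54 and PHO84c values of -0.43, -0.69 and 0.05, so that its high value at 5 h was in WT. VPS25, for a subunit of the ESCRT-II sorting complex, had WT values of 1.49, 1.79 and -0.04 and PHO84c values of -0.55, -0.46 and -0.28. NAT2 was low only at 1 h in WT (-2.52, 0.08 and 0.03) and near 0 throughout in PHO84c (-0.05, -0.12 and 0.06). The 2 probes listed as FDH2, which should share a transcript, were on opposite sides of 0 in WT at 1 h (0.11 and -0.06) and 8 h (0.10 and -0.11) and both above it at 5 h (0.19 and 0.05).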
